A study of Mus musculus and Homo sapiens with 12 samples.

Results

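ERVL elements are remnants of endogenous retroviruses that integrated into the genome and were copied there. Here they were all rows of the human repeat table with class LTR and family ERVL, without ERVL-MaLR and without rows whose family is given as uncertain. The rule took 124716 elements in 119 subfamilies, out of 3919868 elements in the human table and 7078039 in the human and mouse tables together. Of these, 5996 elements in 116 subfamilies had at least some counts. The libraries came from the chronic myeloid leukaemia line K-562, grown in RPMI-1640 with 10% FBS. Wild-type (WT) cells and cells with a knockout (KO) of TET2, an enzyme that oxidises methylated cytosine, were compared, with 3 libraries each and no other agent. Both lines were gifts generated earlier, and how many clones the KO stands for was not stated in the sources used here. RNA bound to chromatin (caRNA) was precipitated with an antibody against 5-methylcytosine (m5C) and sequenced. The comparison asks which ERVL RNAs differed in the m5C-bound chromatin fraction when TET2 was lost. The table used here holds repeats only, so neither the TET2 transcript nor markers of the cell line could be checked. It holds no input or spike-in column, so a difference between KO and WT mixes the amount of RNA with its m5C enrichment and is relative to other repeats.

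An ERVL provirus has an internal region with sequences related to gag and pol, and lacks an env gene. A long terminal repeat (LTR) on each side carries a promoter and a polyadenylation signal. ERVL is named for a leucine tRNA thought to prime its reverse transcription. In human, HERVL-int is the internal region of the youngest members and MLT2A1 and MLT2A2 are their LTRs, while most other subfamilies are older and are found as single LTRs. The mouse relative MERVL is known for its expression in the early embryo.

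For each of 6 subfamilies, the element with the most counts, or in MER21B the element with the most counts on a main chromosome, is printed to give the kind of RNA behind the largest values, with every cytosine, the base that m5C modifies, in capitals. The first 300 bases on the strand of the element are given, or the whole element where it is shorter. ERVL-int was read from hg38 chr21:22233868-22234167 (+), ERV3-16A3_I-int from chr17:43288178-43288477 (−), LTR67B from chr14_KI270847v1_alt:1202632-1202931 (+), MER21C from chr3:198170536-198170835 (+), MER21B from chr3:198171658-198171844 (+) and MER21A from chr2:87681886-87682185 (+). Between 18.7% and 23.7% of the bases were cytosines. CpG pairs were few, with 8 in the ERV3-16A3_I-int stretch and 0 in the 187 bases of MER21B.
ERVL-int: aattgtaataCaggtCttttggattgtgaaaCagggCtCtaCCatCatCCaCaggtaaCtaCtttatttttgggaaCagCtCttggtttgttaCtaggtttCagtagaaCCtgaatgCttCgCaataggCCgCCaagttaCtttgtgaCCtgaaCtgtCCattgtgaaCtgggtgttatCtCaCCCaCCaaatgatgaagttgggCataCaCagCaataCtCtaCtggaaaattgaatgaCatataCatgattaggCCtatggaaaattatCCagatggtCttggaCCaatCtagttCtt
ERV3-16A3_I-int: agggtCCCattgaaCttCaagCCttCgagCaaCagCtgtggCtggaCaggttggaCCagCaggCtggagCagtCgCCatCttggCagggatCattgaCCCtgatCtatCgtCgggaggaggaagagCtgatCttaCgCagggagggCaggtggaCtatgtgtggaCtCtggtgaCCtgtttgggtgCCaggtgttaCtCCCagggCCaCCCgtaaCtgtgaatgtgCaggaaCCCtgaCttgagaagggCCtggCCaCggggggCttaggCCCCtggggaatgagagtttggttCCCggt
LTR67B: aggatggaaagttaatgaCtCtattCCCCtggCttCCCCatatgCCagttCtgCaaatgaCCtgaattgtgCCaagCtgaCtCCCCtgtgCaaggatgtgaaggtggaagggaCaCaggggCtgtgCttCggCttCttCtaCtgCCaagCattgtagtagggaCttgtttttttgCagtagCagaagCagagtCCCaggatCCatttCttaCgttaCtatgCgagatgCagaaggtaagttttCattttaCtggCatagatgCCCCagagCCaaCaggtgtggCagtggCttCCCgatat
MER21C: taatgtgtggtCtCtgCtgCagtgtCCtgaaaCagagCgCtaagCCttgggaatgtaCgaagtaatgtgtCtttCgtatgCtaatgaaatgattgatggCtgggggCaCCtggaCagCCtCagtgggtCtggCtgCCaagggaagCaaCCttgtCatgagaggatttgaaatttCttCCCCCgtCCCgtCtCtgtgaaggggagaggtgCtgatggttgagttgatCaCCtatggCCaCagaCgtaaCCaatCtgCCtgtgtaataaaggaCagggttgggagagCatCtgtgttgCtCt
MER21B: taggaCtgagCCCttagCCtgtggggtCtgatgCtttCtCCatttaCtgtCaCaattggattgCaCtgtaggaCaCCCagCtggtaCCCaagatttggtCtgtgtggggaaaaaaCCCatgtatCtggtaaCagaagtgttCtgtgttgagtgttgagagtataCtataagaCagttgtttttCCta
MER21A: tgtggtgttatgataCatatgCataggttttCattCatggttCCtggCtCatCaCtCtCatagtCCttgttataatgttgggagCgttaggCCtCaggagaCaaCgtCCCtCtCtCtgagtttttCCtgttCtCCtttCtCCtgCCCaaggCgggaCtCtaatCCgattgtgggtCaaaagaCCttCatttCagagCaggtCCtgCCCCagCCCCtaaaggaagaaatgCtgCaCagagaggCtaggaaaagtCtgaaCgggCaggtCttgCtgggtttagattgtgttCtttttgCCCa

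Depth was low for a repeat family of this size. The counts over the classes DNA, LINE, LTR and SINE totalled 498145 to 649905 in WT against 715023 to 827341 in KO libraries, so depth differed with genotype. The 10 repeats with the most counts took 9.51% to 11.7% of these in WT against 24.4% to 24.9% in KO. ERVL elements received 11441, 6003 and 12310 counts in WT replicates 1 to 3 and 15512, 15916 and 12891 in KO replicates 1 to 3. Across the 53 ERVL subfamilies that could be tested, log-scaled counts correlated at 0.473 to 0.743 between libraries of a genotype and at 0.287 to 0.687 between genotypes. Across all 573 tested subfamilies these were 0.767 to 0.791 and 0.728 to 0.771. The correlations were thus lower over ERVL subfamilies than over repeats in general. Such a value also depends on how widely levels spread among the subfamilies of a set, so it does not measure replicate agreement alone. These correlations run across subfamilies, which are not independent replicates. 

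As a family, ERVL had overlapping shares of the counts in WT and KO. Its share was 1.76%, 1.21% and 2.20% in WT against 1.89%, 2.23% and 1.56% in KO, with means of 1.72% ± 0.497 and 1.89% ± 0.334 (SD, n = 3). The ranges overlapped, the log2 ratio of the means was 0.14, and the exact permutation test gave p = 0.6 (two-sided, where 0.1 is the smallest p that 3 against 3 libraries allow). The value depended on which repeats made up the total. It was 0.39 without the elements of the DNA transposon FordPrefect and 0.38 without the 10 repeats with the most counts (exact permutation p = 0.2 for each), and −0.025 on chromosomes only (p = 1). Within LTR counts the ERVL share was 14.4% ± 4.63 in WT against 15.0% ± 3.29 in KO (exact permutation p = 0.8). Against ERVL-MaLR, the related family of non-autonomous elements, the log2 ratio of counts was −1.25, −2.29 and −1.19 in WT against −1.38, −1.41 and −2.05 in KO. Its mean differed by −0.04 (exact permutation p = 1).

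The counts were gathered on few elements. Of the elements with counts, 70.8% had them in 1 library only and 131 had counts in all 6 libraries. The 249 elements with at least 50 counts over the libraries held 76.7% of all ERVL counts. Of these 249, 1 library supplied 90% or more of the counts of 150 (60.2%). This was the case for 48.5% of other repeats, 54.3% of ERVL-MaLR and 61.3% of ERV1 elements with as many counts. The 10 highest ERVL elements of a library held 37.8% to 45.5% of its ERVL counts in WT against 26.5% to 28.6% in KO.

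The elements with many counts were mostly those whose sequence occurs more than once in the genome. An element was called of repeated sequence when at least 50% of its 50-base words were found more than once in hg38, alternate contigs included. This held for 8.41% of ERVL elements, for 8.05% of those without counts and for 12.2% of those with fewer than 50 counts. It held for 228 of the 249 elements with 50 counts or more (91.6%). Elements of repeated sequence held 75.1%, 73.8% and 89.3% of the ERVL counts in WT against 79.2%, 83.4% and 79.9% in KO. The genotypes overlapped. A count on such an element cannot be tied to 1 place in the genome, because a read that fits several copies is shared or placed by a rule that the sources used here do not give.

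ERVL counts also lay on contigs outside the main chromosomes more often than the elements themselves did. Alternate contigs, which hold second versions of parts of chromosomes, had 3.63% of the elements and 11.6% to 27.9% of the ERVL counts in WT and 23.9% to 26.9% in KO. This was not confined to ERVL. Over all libraries, alternate contigs had 3.39% of the elements and 12.6% to 16.1% of the counts of other repeats. For ERVL-MaLR these were 3.02% and 14.5% to 23.9%. Unplaced and unlocalized contigs had 0.269% of the ERVL elements. They took 2.36%, 2.69% and 1.13% of the ERVL counts in WT against 8.35%, 6.19% and 5.66% in KO, with no overlap (exact permutation p = 0.1, the smallest possible, and 0.3 when adjusted over 3 such shares). Single contigs weighed on the KO values. ERVL elements of chrUn_GL000224v1 had 869, 0 and 154 counts in KO and 0 in each WT library. A MER21C fragment on chrUn_KI270744v1 had 0, 503 and 186 in KO. MER21B and MER21C elements on these contigs also enter the share of MER-named LTRs given below, so these shares are not independent. Other repeats, pooled over all families, moved the same way, from 4.71% to 4.84% in WT to 7.60% to 7.87% in KO. The higher share in KO was thus not confined to ERVL, but it was not seen in every family. For ERVL-MaLR the share on these contigs was 4.45% to 7.68% in WT against 4.38% to 5.47% in KO. For ERV1 it was 4.45% to 8.05% against 3.86% to 6.16%, and both families overlapped between genotypes.

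Within genes, most ERVL counts on chromosomes fell on elements annotated in the direction of the gene. Elements that overlap genes of both directions were left out here. Of the remaining ERVL elements in genes, 39.7% run in the sense direction. Sense elements held 75.3%, 82.5% and 88.8% of the counts on such elements in WT against 71.5%, 82.6% and 83.6% in KO, which overlapped (exact permutation p = 0.7). Whether strand was used in counting was not stated, so this is the direction of the annotated element and not of the RNA. A few loci weighed on these shares. Elements in the U2 snRNA gene cluster described below, sense to CCDC200, held 1.08% to 26.8% of all ERVL counts in WT and 1.22% to 10.5% in KO. Other repeats were not compared for direction. Elements that overlap exons, which were 4.36% of the elements, held 4.36% to 17.5% of the counts on chromosomes in WT and 9.02% to 12.5% in KO. Intronic elements held 55.2% to 64% and 57.4% to 59.8%. The count-weighted GC content was 48.1% ± 2.20 in WT against 46.6% ± 0.885 in KO (exact permutation p = 0.3), and the ratio of observed to expected CpG was 0.215 ± 0.0293 and 0.197 ± 0.0310 (exact permutation p = 0.5).

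Subfamilies were compared with edgeR over all 573 repeat subfamilies with enough counts, and p-values were adjusted over all of them. Of the 53 ERVL subfamilies tested, 0 passed an adjusted p of 0.05, against 1.05% of all subfamilies, and the lowest adjusted p of an ERVL subfamily was 0.19. At an unadjusted p under 0.05 there were 8 ERVL subfamilies (15.1%), against 13.8% of all. The 3 KO libraries all lay above the 3 WT libraries in 9 ERVL subfamilies (17%), against 10.3% of all, and all below them in 1 (1.89%), against 6.63%. The median log2 change was −0.15 for ERVL and 0.03 for all subfamilies, and 26 of the 53 were above 0. The SE was at least as large as the change in 31 of the 53, and their median SE was 0.99. The DESeq2 Wald test called 5 ERVL subfamilies (9.43%), against 10.6% of all.

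**Figure D1:**
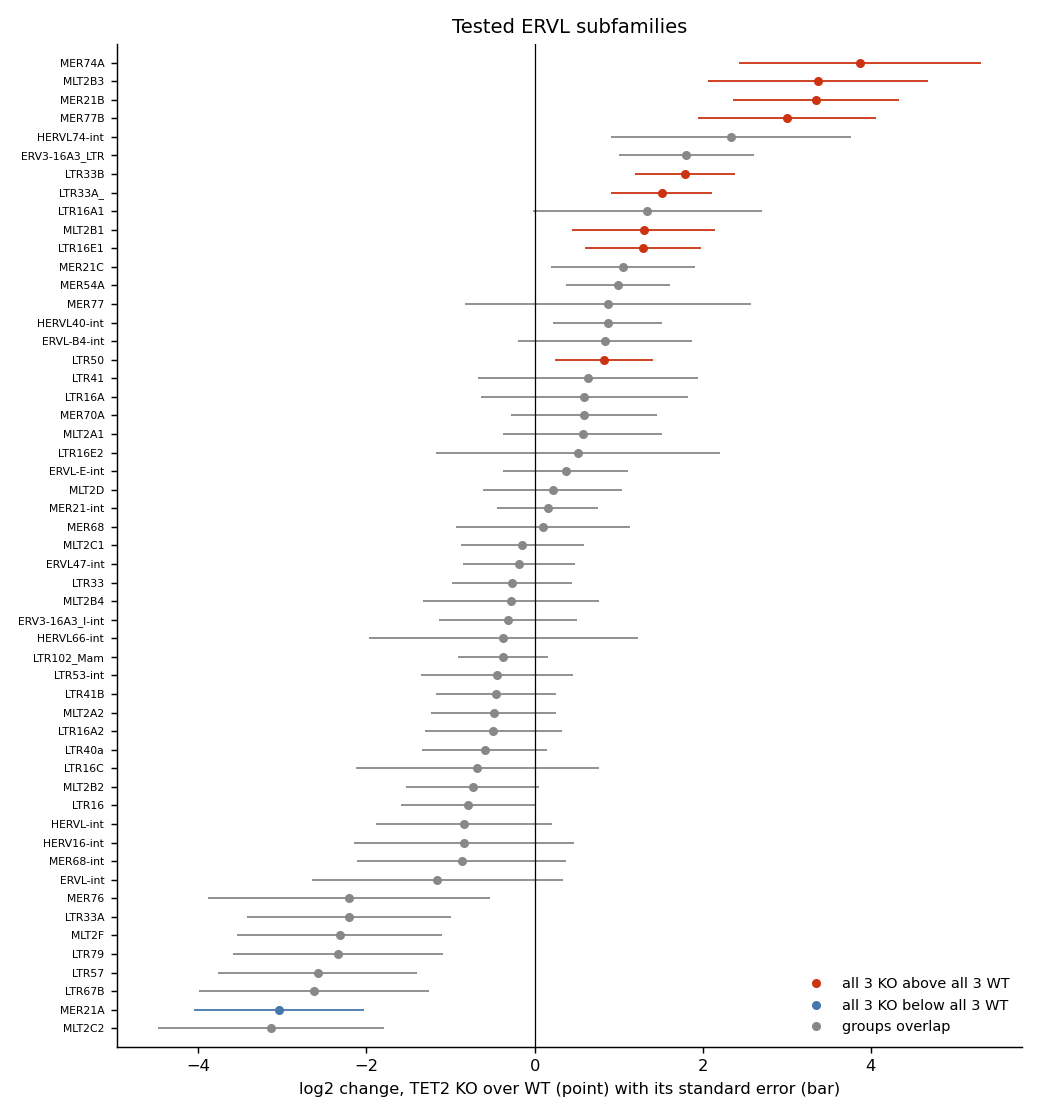
Log2 change of TET2 KO over WT with its SE for the 53 tested ERVL subfamilies. Subfamilies whose 3 KO libraries all lay above the WT libraries are red (9), the 1 that lay below is blue (MER21A), and all others overlapped.

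Internal regions held the largest part of the ERVL counts. They took 49.8%, 47.8% and 34.8% in WT against 35.5%, 44.7% and 28.1% in KO, which overlapped (exact permutation p = 0.3). Of 13 tested internal subfamilies, 5 had a log2 change above 0, and 0 had groups apart, against 10.3% higher and 6.63% lower of all subfamilies tested. The subfamily with the most counts of all was ERV3-16A3_I-int, at 318, 1814 and 1649 counts in WT against 1421, 2710 and 694 in KO. Both genotypes thus spanned more than their difference, and its log2 change was −0.32 ± 0.82 (edgeR adjusted p = 0.86). ERVL-E-int had 850, 289 and 559 counts in WT against 1770, 959 and 471 in KO (log2 change 0.37 ± 0.74). ERVL-B4-int had 852, 102 and 81.2 in WT against 351, 973 and 1035 in KO (0.84 ± 1.03, or 2.41 without WT replicate 1). HERVL-int, the youngest of these regions, had 426, 144 and 1460 in WT against 777, 139 and 906 in KO (−0.84 ± 1.04). Each of them overlapped between genotypes, as the plot of normalised counts by library shows. In HERVL-int, 13.3% of the counts lay on 1 element of repeated sequence at chrY:24092833-24097879. It had 513 counts in WT replicate 3 and 0 in each other library. All ERVL elements of the Y chromosome together had 8.27, 8.40 and 1396 counts in WT against 44.6, 6.22 and 4.35 in KO. Why WT replicate 3 was high there was not tested. HERVL74-int, a smaller internal subfamily, had 619 of its counts in KO replicate 2 and 18.5 to 38.1 in each other library.

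Much of ERV3-16A3_I-int came from 1 short stretch of chromosome 17. The gene cluster for U2 snRNA, an RNA of the spliceosome, spans chr17:43233787-43300231 in hg38 with 13 annotated U2 genes, within an intron of CCDC200. It holds 8 ERV3-16A3_I-int elements, all on the minus strand and 1812 to 5242 bases from the nearest U2 gene. They had 124, 1609 and 1512 counts in WT against 1230, 1672 and 157 in KO. This was 39.1% to 91.7% of the counts of the subfamily in WT against 22.7% to 86.6% in KO, from 8 of its 2861 elements, and 1.08% to 26.8% and 1.22% to 10.5% of all ERVL counts. Of these 8, the 6 elements of 355 to 361 bases, 1 of which is printed above, differed from each other by 0 to 7 bases and held 99.2% of the counts of the array. Over the array WT replicate 1 and KO replicate 3 were low and the other libraries high, so the level followed neither genotype. KO replicate 2 was high at 3 of the 6 elements and had 3.60 to 35.2 counts at the other 3. Without these elements the log2 change of ERV3-16A3_I-int was 1.17 in place of −0.32, and neither passed the test (edgeR adjusted p = 0.59 and 0.86).

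The 5 U2-array elements among the 12 loci with the most counts gave log2 changes from 0.21 to 0.47, each with an SE of at least 1.52. The sixth tested element of the array, at chr17:43294259-43294613, gave −0.89 ± 1.68 (edgeR adjusted p = 0.94). The direction of the 5 turned to between −0.69 and −0.41 when libraries were scaled by their totals alone. The locus with the most counts of all was an ERVL-int element at chr21:22233868-22236875, in an intron of the lncRNA gene ENSG00000226043. It had 1066, 0 and 60.5 counts in WT against 191, 435 and 3 in KO. A copy on an alternate contig, 4 bases different over 3007, had 875, 0 and 66 in WT against 94.5, 357 and 3 in KO. The copies rose and fell together over the libraries, and they made up 96.0% of all counts of ERVL-int. Since they share nearly all of their sequence, they are not independent of each other, and their agreement does not show that each was transcribed. The subfamily as a whole, at 1978, 23.9 and 137 counts in WT against 305, 802 and 35.6 in KO, gave a log2 change of −1.16 ± 1.49. It mostly reflected these copies, except in WT replicate 2 and KO replicate 3, where they held 0% and 16.8% of its counts.

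LTRs with MER names were the 1 group whose share of ERVL counts did not overlap between genotypes. The 19 MER subfamilies took 13.5%, 10.7% and 12.5% of the ERVL counts in WT against 24.1%, 23.5% and 19.6% in KO, with means of 12.3% ± 1.42 and 22.4% ± 2.43 (SD, n = 3). The log2 ratio was 0.87, with an exact permutation p of 0.1, the smallest possible, and 0.8 when adjusted over 8 groups. Of 10 MER subfamilies tested, 8 had a log2 change above 0, 3 had all KO libraries above WT and 1 had all below, against 50.8%, 10.3% and 6.63% of all subfamilies tested. Without MER21B the MER share was 12.8%, 10.1% and 12.2% in WT against 13.8%, 20.7% and 15.8% in KO, still without overlap (log2 ratio 0.52, exact permutation p = 0.1). Without MER21B and MER21C, which were chosen for removal after their values were seen, the other 17 MER subfamilies took 6.32%, 8.58% and 6.33% in WT against 8.27%, 5.39% and 6.23% in KO, which overlapped (exact permutation p = 0.5).

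MER21B was the ERVL subfamily with the lowest adjusted p. Its normalised CPM values, which are counts scaled to the TMM-corrected library size, were 126, 82.4 and 81.0 in WT against 1838, 594 and 600.3 in KO, or 96.5 ± 25.7 and 1011 ± 717 (SD, n = 3). All KO libraries lay above all WT libraries, with KO replicate 1 the highest. The log2 change was 3.35 ± 0.99 (edgeR adjusted p = 0.19, DESeq2 adjusted p = 0.0022). The largest single element, on the unplaced contig chrUn_GL000224v1, had 491 counts in KO replicate 1, 58.5 in KO replicate 3 and 0 in each other library. MER21B elements of repeated sequence held 84.8% of its counts, and without such elements the log2 change was 0.22.

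The MER21B sequence printed above stands for 8 copies of at least 95% identity. They lie at chr3:198171658-198171844, in an intron of the lncRNA gene ENSG00000290937, and at 7 other places, 3 of the 8 being off the main chromosomes. Together they had 6.50, 0 and 0 counts in WT against 534, 345 and 270 in KO, so every KO library lay above every WT library. All counts in WT and in KO replicate 3 came from the copy on chromosome 3 and its identical copy on an alternate contig. Since the copies share nearly all of their sequence, they are not independent of each other. The copy on chromosome 3 alone had 3.50, 0 and 0 in WT against 267, 94.5 and 143 in KO, and an identical one on an alternate contig had 3, 0 and 0 in WT against 216, 132 and 126 in KO. Their fitted log2 changes were 5.91 ± 1.83 and 5.99 ± 1.73 (edgeR adjusted p = 0.37 and 0.30), which depend on the prior count because WT is near 0. Both loci passed the filter for enough counts only through the KO libraries, so being higher in KO was not independent of being tested. The rest of MER21B, away from these copies, also lay higher in KO, at 78.4, 40.0 and 40.5 counts in WT against 1076, 103 and 228 in KO.

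The MER21C element that lies next to this MER21B element followed it in part. At chr3:198170536-198171134, in the same intron, it had 203, 0 and 0 counts in WT against 268, 474 and 159 in KO. WT replicate 1 was above 1 KO library, so the groups overlapped. An identical copy on an alternate contig had 332, 0 and 0 in WT against 198, 314 and 178 in KO. Over the whole subfamily, MER21C had 740, 89.1 and 720 counts in WT against 852, 2429 and 1231 in KO, with a log2 change of 1.05 ± 0.86 (edgeR adjusted p = 0.59), which was 0.43 without KO replicate 2. A MER21C fragment on the unplaced contig chrUn_KI270744v1 was listed at 0 in WT and in KO replicate 1, and had 503 and 186 counts in KO replicates 2 and 3.

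MER21A, a relative by name, went the other way. Its normalised CPM values were 651, 754 and 932 in WT against 103, 141 and 32.5 in KO, or 779 ± 142 and 92.1 ± 55.0 (SD, n = 3). All KO libraries lay below all WT libraries, and among the 53 tested ERVL subfamilies it was the 1 of which this was true. The log2 change was −3.04 ± 1.01 (edgeR adjusted p = 0.25, DESeq2 adjusted p = 0.0061). WT replicate 2 got its counts from other elements than WT replicates 1 and 3 did. The element at chr2:87681886-87683284, in introns of ENSG00000289429 and NCAL1, had 185, 11.5 and 268 counts in WT against 2.50, 27.5 and 1 in KO. With a copy at chr2:111267604-111269006, in introns of MIR4435-2HG and ENSG00000229118, it had 387, 25.7 and 449 in WT against 6.50, 52.0 and 1.83 in KO, so these copies overlapped between genotypes. The rest of MER21A had 50.6, 340 and 11.2 in WT against 83.5, 53.8 and 24.8 in KO, which overlapped as well. Without elements of repeated sequence, which held 86.5% of its counts, the log2 change was −0.30.

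Of the other subfamilies that stood apart, several rested on 1 library. MER74A had 16.3, 16.5 and 16.2 normalised CPM in WT against 30.8, 778 and 30.1 in KO, and 88.1% of its counts came from KO replicate 2. MER77B had 4.12 to 14.9 in WT against 18.3, 21.3 and 225 in KO. MLT2B3 had 42.5 to 46.0 in WT against 68.5, 157 and 1245 in KO, with 80.4% of its counts from KO replicate 3. The log2 changes were 3.87 ± 1.44 for MER74A, 3.00 ± 1.06 for MER77B and 3.37 ± 1.31 for MLT2B3 (edgeR adjusted p = 0.29, 0.28 and 0.32), and the DESeq2 Wald test called MER77B (adjusted p = 0.018) and MLT2B3 (0.025). Without KO replicate 2 the log2 change of MER74A was 0.80, and without KO replicate 3 that of MLT2B3 was 1.30. LTR33B, in contrast, was even over its replicates and had no counts on elements of repeated sequence. It lay at 11.9, 10.3 and 2.03 in WT and at 37.7, 34.6 and 33.8 in KO, a log2 change of 1.79 ± 0.59 (edgeR adjusted p = 0.25, DESeq2 adjusted p = 0.031) from a mean of 17 counts. LTR33B passed the filter for enough counts only through the KO libraries, so being higher in KO was not independent of being tested. MLT2B1 was even as well, with 83.2, 55.6 and 85.1 in WT and 225, 134 and 204 in KO from a mean of 98.7 counts, a log2 change of 1.30 ± 0.85 (edgeR adjusted p = 0.52). LTR33A_, LTR16E1 and LTR50 were apart too, with log2 changes of 1.51, 1.29 and 0.82. MER77B and LTR33A_ passed the filter mainly through KO as well.

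The MLT2 LTRs, which flank HERVL and its older relatives, held few counts. MLT2A1 and MLT2A2 together took 1.08%, 1.20% and 0.219% of the ERVL counts in WT against 0.479%, 1.14% and 0.601% in KO, from 5.07% of the elements. Their log2 changes were between −0.48 and 0.57. The 5 MLT2B subfamilies took 1.45% to 3.10% in WT against 1.89% to 11.6% in KO, the highest value being KO replicate 3 with its MLT2B3 counts. MLT2C to MLT2F took 0.876% to 11.1% in WT against 1.16% to 1.83% in KO, and there WT replicate 2 was the highest. Its MLT2C2 counts were 369, against 19.4 to 30.6 in each other library, of which 188 and 146 came from a pair of X-chromosome elements of repeated sequence that had no counts in any other library. MLT2C2 had the lowest log2 change of the tested ERVL subfamilies, at −3.13 ± 1.35 (edgeR adjusted p = 0.35), which was −0.41 without WT replicate 2.

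The LTR33 and LTR16 groups overlapped between genotypes. LTR33 subfamilies took 6.44%, 16% and 7.71% of the ERVL counts in WT against 6.94%, 4.89% and 11.8% in KO (exact permutation p = 0.6). LTR33 itself had 332, 921 and 923 counts in WT against 941, 709 and 1264 in KO, the most even of the 12 subfamilies with most counts by the share of its highest library, 24.8%. These counts are not scaled for the higher depth of KO. Its normalised CPM values were 493, 1896 and 1870 in WT against 1073, 943 and 1524 in KO. The log2 change was −0.27 ± 0.72 (edgeR adjusted p = 0.87). LTR16 subfamilies took 10.5%, 5.59% and 13.0% in WT against 12.3%, 12.4% and 5.65% in KO (exact permutation p = 0.9). LTR16C had 1475 counts in WT replicate 3 and 1420 in KO replicate 1, and 38.1 to 196 in each other library. LTR16E2 had 669 in WT replicate 1 and 902 in KO replicate 2, with 6.00 to 225 in the others. High libraries were thus found in both genotypes.

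Single elements were fitted by the same model. Of the 3127 loci tested over all repeats, 49 were ERVL, and of these 39 were of repeated sequence and 10 lay off the chromosomes. With edgeR 0 ERVL loci passed an adjusted p of 0.05, against 0.0959% of all loci, and the lowest adjusted p was 0.20. At an unadjusted p under 0.05 there were 6 (12.2%), against 7.48% of all. In 4 (8.16%) all KO libraries were above WT, against 8.76% of all, and in 3 (6.12%) all were below, against 6.46%. The DESeq2 Wald test called 6 (12.2%), against 5.56% of all. The median log2 change was 0.43 for ERVL loci and 0.12 for all loci. It was −0.44 and −0.58 when libraries were scaled by their totals, so the direction of the ERVL median depended on the scaling.

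The 3 ERVL loci that were lower in every KO library were near-identical LTR33 copies. The element at chr1:413845-414733, in an intron of the lncRNA gene ENSG00000290385, had 22.5, 65.3 and 122 counts in WT against 0 in each KO library. The element at chr1:649599-650481, in an intron of ENSG00000230021, had 11.5, 60.8 and 91.7 in WT against 0 in each KO library. The element at chr8:127579-128455, outside annotated genes, had 10.7, 42.8 and 117 in WT against 0 in each KO library. They differed from each other by 7 to 13 bases over lengths of 877 to 889. Against a floor of 3 counts per KO library, the WT mean, scaled to library totals, was at least 33.4-fold, 26.5-fold and 27.2-fold higher, and the edgeR adjusted p was 0.20 for each, whereas the DESeq2 Wald test called all 3 (adjusted p = 8.2e-06, 3.9e-05 and 5.3e-05). With 0 counts in KO, these 3 loci could pass the filter for enough counts only through WT. Being lower in KO was thus not independent of being tested. Since these copies share most of their sequence they are also not independent of each other. Over the 7 LTR33 copies of at least 95% identity, WT had 44.7, 253 and 726 counts and KO had 11.3, 183 and 1, which overlapped. Of the other 4 copies, those at chr1:103375-104254 and chr1:223919382-223920269 had 0, 58.8 and 152 and 0, 24.5 and 154 counts in WT against 0, 40.3 and 0 and 11.3, 1.71 and 1 in KO. The copy at chr1:279941-280818 had 0, 1.17 and 89.1 in WT against 0, 141 and 0 in KO, and the last held 0.25 counts in all. The WT mean over the copies was thus above the KO mean, but KO replicate 2 lay above WT replicate 1.

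Several of the loci with most counts were found in 1 or a few libraries. LTR67B had 2744 counts in WT replicate 3 and 38.7 to 424 in each other library, with a log2 change of −2.63 ± 1.37 (edgeR adjusted p = 0.41). The element printed above and an identical one at chr14:94088070-94088691, which overlaps an exon of IFI27L1, held 60.1% of its counts. They had 0, 122 and 2202 counts in WT against 0 in each KO library, and were seen in too few libraries to be tested. LTR41 had 760, 5.12 and 544 in WT against 470, 471 and 1931 in KO. Its locus at chr1:144178-144986, in an intron of ENSG00000241860, had 16, 0 and 0 in WT against 13.3, 0.6 and 128 in KO (log2 change 2.89 ± 1.79, edgeR adjusted p = 0.76). LTR79 had 325 of its counts in WT replicate 1 and 9.15 to 30.5 in each other library.

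Per length, the order of the subfamilies was different from that by counts. HERVL66-int had the most, at 230.4 counts per 100 kb of annotated sequence (mean over the libraries), followed by LTR86C at 164, of whose counts 99.3% came from KO replicate 1. Among the 12 subfamilies with most counts, LTR41 had 145, ERVL-int 85.0 and LTR67B 69.2, against 26.9 for ERV3-16A3_I-int, 33.5 for MER21C and 30.3 for LTR33. HERVL-int had 15.2 and ERVL-E-int 12.6. The levels of HERVL66-int, LTR41, ERVL-int and LTR67B each differed between libraries of a genotype by more than 5-fold in at least 1 genotype, so neighbours in this order were not distinguished beyond their spread.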

How the data were processed

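The authors trimmed the reads with Trimmomatic 0.39, aligned them with HISAT2 2.1.0 to hg38, transcripts and spike-ins, removed duplicates with Picard and counted reads over repeat elements with featureCounts. The deposited values are the estimated counts that the authors obtained per element and library. They are not normalised and many are fractional, and the options that made them so are not given in the sources used here. Names and versions are from the submitters' processing notes and the study's methods. The line field of the KO labels has a different digit from their titles and was read as a typing error. All columns used matched a sample, and 0 columns were left out.

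Counts of DNA, LINE, LTR and SINE elements were summed per subfamily, or taken per element, and rounded to whole numbers. KO was compared with WT by the edgeR 4.0.16 quasi-likelihood test (filterByExpr, TMM, prior count 2, two-sided, Benjamini-Hochberg over all features tested). A call is an adjusted p under 0.05, and the SE is the size of the log2 change over the square root of F. The DESeq2 1.42.0 Wald test was an alternative. Values per library were compared by the exact permutation test over 20 assignments. The labels do not say that the libraries of a genotype came from separate cultures, so p-values measure the spread between these libraries. No batch is labelled. The models and the count of repeated words were tested on simulated data.

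Subfamilies were named if they were among the 12 with the most counts, were called, or had 1 of the 4 largest or 4 smallest log2 changes at a mean of at least 50 counts. Loci were named likewise, without that minimum. Other elements and subfamilies given in the text, the copies of named loci, and MER21B and MER21C as the pair left out, were chosen after their values were seen. The members, lists and tests were chosen with earlier results of these data known. Sequences and repeated words were read from hg38, and gene annotation was GENCODE release 44, which is not the release the authors named and covers no alternate or unplaced contig here. The main fits did not pair libraries by replicate number. The deviations of libraries with the same number correlated at −0.052, 0.042 and −0.092, so no pairing was seen. Libraries with different numbers were not compared in this way, so the check cannot settle whether any were prepared together. Software was R 4.3.3, Python 3.11.15, pandas 2.3.3, pysam 0.24.0 and matplotlib 3.10.9.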

Additional observations from a re-analysis of the deposited data

Results flagged for a closer look

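Elements whose family is given as uncertain ERVL, which the comparisons left out, had counts above those of the control libraries. The 3058 elements of Eutr10, LTR55, LTR87, LTR89 and LTR89B had 22.0, 26.6 and 16.8 counts in WT against 62.5, 225 and 253 in KO, which is 540.37 counts over the KO libraries against 65.3 over WT. Every KO library was above every WT library, and KO depth was higher as well. The difference was not tested, and neither was its cause.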

How the results depend on the processing

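Depth limited single loci: 5947 of the ERVL loci with counts were too thinly or unevenly counted to test, and those tested held 27.3% of ERVL counts. Multiple copies, alternate contigs and single libraries moved with many of the values. With edgeR, 0 ERVL subfamilies and 0 loci were called under every alternative, including the replicate block (0 and 0) and each library left out. The DESeq2 Wald test called 5 subfamilies and 6 loci. The scaling moved the median of all loci from 0.12 to −0.58 with library totals and 0.33 with DESeq2 size factors. Calls over all subfamilies were 6 with edgeR and between 0 and 8 under its alternatives. The alternatives that kept only chromosomes, or left out the U2 array or repeated sequence, were chosen after seeing the data. The cause of each turn below was not tested beyond what the alternative removes.

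None of the values that changed sign had passed its test. With library totals the U2-array loci at 43288119, 43281955, 43264433, 43255091 and 43249643 gave log2 changes of −0.58, −0.51, −0.44, −0.69 and −0.41. With the replicate block, loci 43255091 and 43249643 gave −0.54 and −0.99, and the shares of MLT2A, other LTRs and exons 0.069, 0.25 and 0.19. With a total of at least 10 counts, locus 43255091 gave −0.0013. With DESeq2 size factors, ERVL-int on chromosome 21 gave 0.046. On chromosomes only, ERVL-E-int gave −0.28 and the shares of ERVL, LTR33 and other LTRs −0.025, 0.052 and 0.19. With elements of at least 10 counts, the MLT2A and exon shares gave 1.28 and 0.039. Without elements of repeated sequence, ERV3-16A3_I-int gave 0.059, ERVL-E-int −0.27, LTR41 −0.098, LTR67B 1.18, ERVL-B4-int −0.72, LTR16C 1.17 and HERVL74-int −0.023. Without the U2 array, ERV3-16A3_I-int gave 1.17, the ratio to ERVL-MaLR 0.083 and the LTR16 share −0.0079. Without the 10 highest ERVL elements, the ratio to ERVL-MaLR gave 0.20 and the shares of LTR16, other LTRs, exons, elements outside genes and sense elements −0.16, 0.48, 0.55, −0.057 and 0.0052.

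Leaving out each library in turn gave log2 changes from −1.04 to 0.098 for ERV3-16A3_I-int, −0.059 to 0.73 for ERVL-E-int, −0.34 to 1.05 for LTR41, −3.26 to 0.21 for LTR67B, −1.32 to 0.64 for HERVL-int, −2.41 to 2.38 for LTR16C, −2.39 to 1.56 for ERVL-int, −1.17 to 4.29 for LTR16E2, −0.89 to 2.93 for HERVL74-int and −2.81 to 0.30 for LTR79. For loci the ranges were −1.51 to 3.23 and −2.23 to 2.67 for ERVL-int on chromosome 21 and its alternate copy, and −1.05 to 1.07, −0.76 to 1.14, −2.67 to 1.23, −1.47 to 0.71 and −1.56 to 1.03 for the U2-array loci in the order above. For shares they were −0.066 to 0.35 for ERVL, −0.17 to 0.30 for ERVL within LTR, −0.39 to 0.18 for the ratio to ERVL-MaLR, −0.63 to 0.19 for MLT2A, −0.023 to 1.67 for MLT2B, −2.10 to 0.055 for MLT2C to MLT2F, −0.22 to 0.35 for LTR16, −0.77 to 0.16 for LTR33, −0.43 to 0.75 for other LTRs, −0.38 to 0.58 for exons, −0.11 to 0.016 for sense elements and −0.024 to 0.12 for repeated sequence. MER21C, ERVL-B4-int, MLT2B3, MER74A and MLT2C2 kept their sign but ranged from 0.43 to 1.58, 0.43 to 2.41, 1.30 to 3.89, 0.80 to 4.46 and −3.65 to −0.41. MER21B and MER21A kept their direction under all 17 edgeR alternatives, at 0.22 to 3.64 and −3.45 to −0.30.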
